A study of Mus musculus with 7 samples.

Results

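The genes described here are 9 genes of the mast cell, namely Mcpt1, Mcpt2, Mcpt4, Cma1, Cpa3, Tpsb2, Kit, Fcer1a and Ms4a2, chosen by name and found by matching their Ensembl identifiers to symbols. All 9 were present among the 43346 genes of the deposited count table. They were followed across 7 whole colon tumors, each from a wild-type C57BL6/J mouse that had received a bone marrow (BM) transplant and then colitis-associated cancer (CAC) induction with a single 10 mg/kg dose of the carcinogen AOM and 3 cycles of 3% DSS, a colitis-inducing sugar polymer each cycle being 1 week of DSS in the water supply and then 2 weeks of rest.

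In 3 tumors the graft was Dnmt3a(+/+) BM and in 4 it was Dnmt3a(+/-) BM, the study's model of clonal hematopoiesis, in which blood is partly or wholly made by stem cells that carry a mutation. Donors of both groups carried Mx1-Cre, a recombinase that poly(I:C) switches on, so that Cre and its induction were shared and the deletable Dnmt3a allele was not. Recipients, aged 8 weeks in the labels where the study's methods give another age, were lethally irradiated mice of the congenic CD45.1 strain per those methods, and their colon epithelium and stroma kept an intact Dnmt3a. Tissue mast cells of the host can outlive irradiation, and gene counts do not tell them from mast cells of the graft. Tumors are numbered as in the labels. The column names of Dnmt3a(+/-) BM tumors 2, 3 and 4 carry an added ending that the names of the other tumors lack. Its meaning is not given in the sources used here. No Dnmt3a(+/+) BM tumor carries it, so that a difference tied to it cannot be told apart from one tied to the graft. The column names of Dnmt3a(+/+) BM tumors 1 and 2 and Dnmt3a(+/-) BM tumors 1 and 2 begin with BMT18. Those of the remaining 3 tumors begin with BMT8. The prefixes are read here as 2 transplant experiments.

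Mast cells leave the BM as progenitors and mature in tissue under KIT, the receptor for stem cell factor. Their granules hold proteases bound to proteoglycan, and mouse mast cells of the mucosa carry the chymases Mcpt1 and Mcpt2 whereas those of connective tissue carry Mcpt4, the chymase Cma1 and the tryptase Tpsb2. Carboxypeptidase A3 (Cpa3) is a further granule protease. The high-affinity IgE receptor, whose alpha chain Fcer1a binds IgE and whose beta chain Ms4a2 amplifies the signal, triggers release of the granules. Kit is also made by interstitial cells of Cajal and by some crypt cells, and Fcer1a and Ms4a2 are shared with basophils.

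The 4 chymase genes lie together on chromosome 14 (GRCm38, GENCODE M21 annotation). Cma1 spans 55941451 to 55944675 on the minus strand, Mcpt1 56017971 to 56020384 on the plus strand, Mcpt2 56042041 to 56044642 on the plus strand and Mcpt4 56059629 to 56062313 on the minus strand. Cpa3 lies on chromosome 3 (20215620 to 20242181, minus), with the microRNA gene Mir7007 inside its span. Tpsb2 lies on chromosome 17 (25366305 to 25369098, plus), Kit on chromosome 5 (75574916 to 75656722, plus), Fcer1a on chromosome 1 (173221284 to 173227214, minus) and Ms4a2 on chromosome 19 (11615523 to 11623719, minus).

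Promoter windows of 4 proteases are shown because 3 of these genes varied together over the tumors and the remaining gene, Cma1, did not. Each window runs 5′ to 3′ from 250 bases before to 50 bases after the transcription start (RefSeq, GRCm38.p6), and capitals mark the letters GATAA or, on the opposite strand, TTATC, the core bound by GATA factors. The windows are chr14:56017714-56018013 on the plus strand for Mcpt1, chr14:56062261-56062560 on the minus strand for Mcpt4, chr3:20242132-20242431 on the minus strand for Cpa3 and chr14:55944626-55944925 on the minus strand for Cma1.
Mcpt1: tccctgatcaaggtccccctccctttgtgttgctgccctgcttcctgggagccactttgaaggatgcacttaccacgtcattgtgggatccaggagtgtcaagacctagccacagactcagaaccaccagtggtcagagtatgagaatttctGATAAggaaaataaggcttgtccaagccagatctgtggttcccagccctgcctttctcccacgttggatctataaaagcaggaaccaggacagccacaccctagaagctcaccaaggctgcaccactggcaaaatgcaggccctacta
Mcpt4: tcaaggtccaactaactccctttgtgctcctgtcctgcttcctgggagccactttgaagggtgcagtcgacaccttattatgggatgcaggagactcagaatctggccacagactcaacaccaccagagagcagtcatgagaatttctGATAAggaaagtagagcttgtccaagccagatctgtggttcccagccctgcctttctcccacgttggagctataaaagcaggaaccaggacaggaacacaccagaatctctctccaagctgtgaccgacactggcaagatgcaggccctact
Cpa3: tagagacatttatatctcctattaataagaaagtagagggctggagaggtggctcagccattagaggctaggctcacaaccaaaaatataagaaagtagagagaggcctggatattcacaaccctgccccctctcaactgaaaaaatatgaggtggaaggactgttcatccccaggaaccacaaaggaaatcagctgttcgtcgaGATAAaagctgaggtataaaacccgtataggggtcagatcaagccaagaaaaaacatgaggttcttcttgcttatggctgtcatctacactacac
Cma1: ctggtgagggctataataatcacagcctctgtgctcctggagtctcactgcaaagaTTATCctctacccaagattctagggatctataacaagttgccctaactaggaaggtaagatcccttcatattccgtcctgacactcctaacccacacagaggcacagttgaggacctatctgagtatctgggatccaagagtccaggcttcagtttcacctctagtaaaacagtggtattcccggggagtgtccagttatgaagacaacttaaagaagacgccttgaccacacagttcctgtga

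The Mcpt1 and Mcpt4 windows were identical at 249 of 309 aligned columns (80.6%), with the GATAA at position -98 in Mcpt1 and -102 in Mcpt4 relative to the start. Against Mcpt1, the Cma1 window matched at 47.7% of aligned columns and the Cpa3 window at 45.2%. GATAA stood at -45 in Cpa3, and TTATC at -194 in Cma1. Of the 7 members with a promoter entry, 6 held GATAA on either strand, and the share among all 32851 promoters of this length was 25.4%. Kit was the member without it. Ms4a2 held it 3 times. The letters CATGTG, an E-box of the kind bound by Mitf, were searched on both strands as well and were found in Fcer1a alone of the 7, against 14.2% of all promoters. Such matches describe these letters only. Mcpt2 and Tpsb2 were not analysed here for promoter sequence.

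Total counts ranged from 38472738 to 64314999 per tumor, with a median of 40300780. Levels are given as CPM, counts relative to the library total after scaling by the trimmed mean of M-values (TMM). Dnmt3a itself had a mean of 22.5 ± 2.06 CPM (SD, n = 3) in Dnmt3a(+/+) BM tumors and 30.3 ± 8.94 CPM (SD, n = 4) in Dnmt3a(+/-) BM tumors (edgeR quasi-likelihood adjusted p = 0.542), and gene counts of tumors in which host cells keep both alleles do not check the graft's genotype. Dnmt3a(+/-) BM tumor 2 stood apart, with summed marker levels of 110.0 CPM for 6 endothelial genes (11.8 to 48.1 in the other tumors), 1390 CPM for 8 fibroblast genes (234 to 588) and 9010 CPM for 9 colon epithelial genes, the lowest of the 7. The members' fold changes are therefore given with and without it, as are those of the genes of mast cell function with an unadjusted p under 0.05 that could be fitted without it. At the other end, Dnmt3a(+/+) BM tumor 3 had 43.0 CPM over 8 smooth muscle genes against 270 to 1220 CPM in the rest.

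None of the 9 genes passed the test between the grafts, and most of them were highest in 1 tumor of the Dnmt3a(+/-) BM group. In the edgeR fit over 15810 genes, 0 of 9 members were called at an adjusted p under 0.05 and a log2 fold change beyond 1 in either direction, with 0% of all genes called. At an unadjusted p under 0.05 there were 2 members, Cma1 and Ms4a2, beside 11% of all genes. Ms4a2 passed the count filter of the fit only through Dnmt3a(+/-) BM tumors 2, 3 and 4, the group where it was higher. Its p is therefore no support for a difference. DESeq2 called 0 of the 8 members for which it gave an adjusted p, beside 1.25% of all genes. This share, here and below, is over the 24067 genes with an unadjusted p, whether or not DESeq2 also gave an adjusted p. The log2 fold change of Dnmt3a(+/-) BM over Dnmt3a(+/+) BM was above 0 for 8 of 9 members (50.2% of all genes) and above 1 for 7 (7.56% of all genes), with a median of 1.62 over the members and 0.003 over all genes. These fold changes had standard errors up to 1.83. Without Dnmt3a(+/-) BM tumor 2 and without a count filter, Ms4a2 was at 3.22 and the other members ran from -0.97 to 0.50. Dnmt3a(+/-) BM tumor 2 was the highest of the 7 for 7 of 9 members, which held for 24.7% of all genes. Dnmt3a(+/+) BM tumor 3 was the lowest for 6 of 9 members, which held for 19.7% of all genes. In bulk tumors, fewer mast cells and less RNA per mast cell cannot be told apart.

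**Figure D1:**
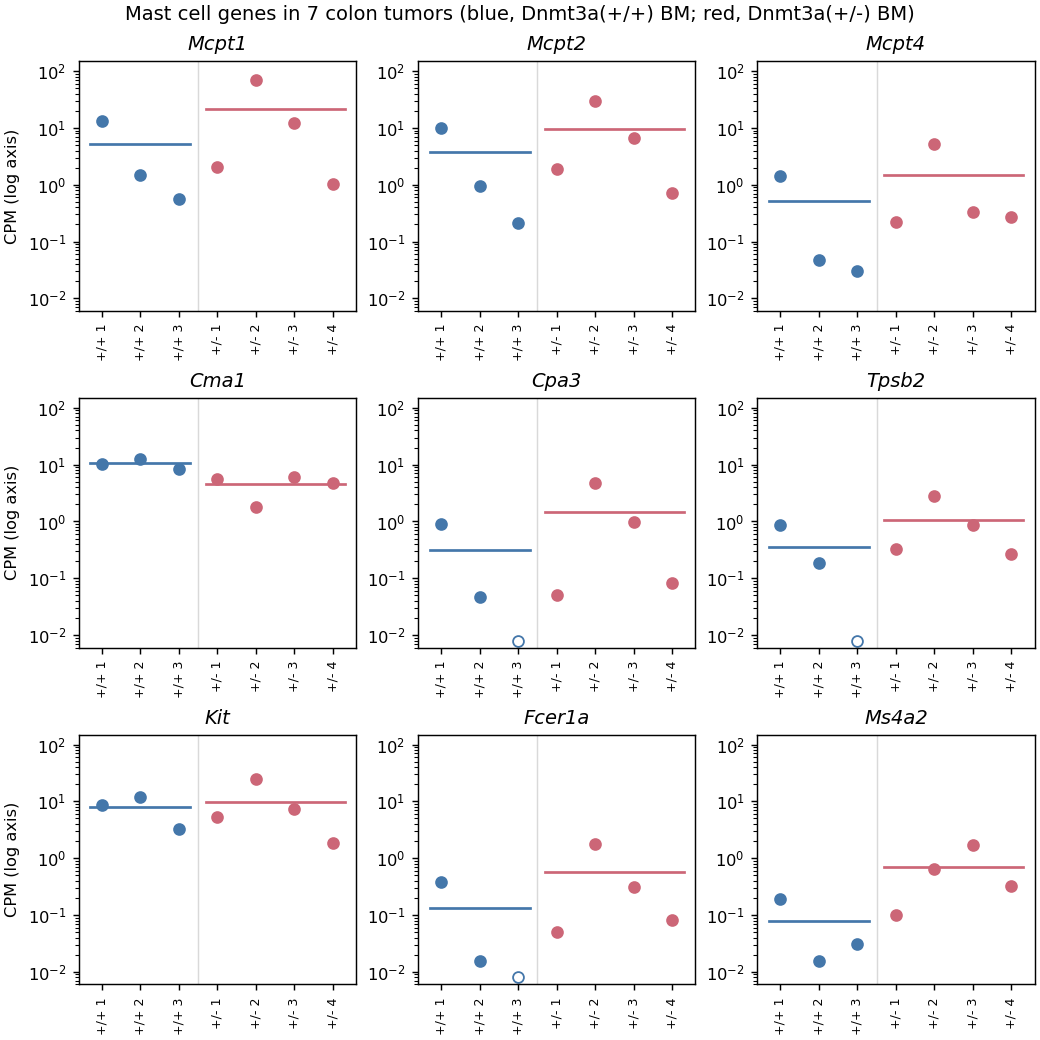
Levels of the 9 mast cell genes in CPM on a log axis, 1 point per tumor (blue, Dnmt3a(+/+) BM, red, Dnmt3a(+/-) BM), with lines at the group means and open circles at the lower edge for a count of 0. Dnmt3a(+/-) BM tumor 2 is the highest point for 7 genes, and Cma1 is the gene whose groups do not overlap.

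The mucosal chymases were the most variable of the abundant members. Mcpt1 stood at 13.5, 1.51 and 0.551 CPM in the Dnmt3a(+/+) BM tumors 1 to 3 and at 2.07, 69.6, 12.4 and 1.05 CPM in the Dnmt3a(+/-) BM tumors 1 to 4. The groups overlapped, with Dnmt3a(+/-) BM tumor 2 above all others and 126-fold above the lowest tumor. Group means were 5.18 ± 7.19 CPM (SD, n = 3) and 21.3 ± 32.6 CPM (SD, n = 4). On the log2 scale the fold change was 2.04 with a standard error of 1.6 (edgeR adjusted p = 0.665), and without Dnmt3a(+/-) BM tumor 2 it was 0.06. That tumor held 69.1% of the Mcpt1 CPM summed over all 7 tumors.

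Mcpt2, the other mucosal chymase, followed the same order of tumors. It stood at 9.94, 0.968 and 0.214 CPM with Dnmt3a(+/+) BM and at 1.92, 29.9, 6.54 and 0.703 CPM with Dnmt3a(+/-) BM. Again tumor 2 of the second group was the highest, Dnmt3a(+/+) BM tumor 1 came second and the groups overlapped. Its log2 fold change was 1.40 with a standard error of 1.51 (edgeR adjusted p = 0.773) and turned to -0.23 without Dnmt3a(+/-) BM tumor 2. The share of Mcpt1 in the counts of the mucosal pair lay between 51.9% and 72.0% in every tumor while the sum of their counts ran from 25 to 4883. Per kilobase of exon, Mcpt1 exceeded Mcpt2 in all 7 tumors.

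Among the connective tissue proteases, Mcpt4 and Tpsb2 had low counts and shared with the mucosal pair the 3 highest tumors and the lowest. Mcpt4, the chymase of heparin-rich granules, had 54, 3 and 1 counts with Dnmt3a(+/+) BM and 9, 252, 16 and 10 counts with Dnmt3a(+/-) BM. Its level in Dnmt3a(+/-) BM tumor 2 was 5.13 CPM, where the other tumors ranged from 0.0306 to 1.45 CPM and the groups overlapped. For Mcpt4 the log2 fold change was 1.56 with a standard error of 1.63 (edgeR adjusted p = 0.764), and it turned to -0.84 without that tumor. Tpsb2, a tryptase, had 32, 12 and 0 counts with Dnmt3a(+/+) BM and 13, 139, 42 and 10 counts with Dnmt3a(+/-) BM. Tumor 2 was once more the highest, at 2.83 CPM, and the groups overlapped. The log2 fold change of Tpsb2 was 1.62 with a standard error of 1.31 (edgeR adjusted p = 0.671) and 0.52 without that tumor.

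Cma1 was the exception. It stood at 10.2, 12.8 and 8.53 CPM with Dnmt3a(+/+) BM and at 5.49, 1.77, 6.05 and 4.70 CPM with Dnmt3a(+/-) BM. All 4 Dnmt3a(+/-) BM tumors lay below all 3 Dnmt3a(+/+) BM tumors, and tumor 2, the highest for the other chymases, was the lowest here. It was the only 1 of 9 members whose groups did not overlap. Groups failed to overlap in this direction for 6.32% of all genes, in the opposite direction for 6.12% and in either for 12.4%. Means were 10.5 ± 2.16 CPM (SD, n = 3) and 4.50 ± 1.90 CPM (SD, n = 4), and the log2 fold change was -1.23 with a standard error of 0.42. This did not pass the test over all genes (edgeR unadjusted p = 0.0201, adjusted p = 0.406). The exact two-sided permutation test over the 35 splits of the tumors gave p = 0.0286, the smallest it can give, and was run for each of the 9 members. DESeq2 gave an adjusted p of 0.13, and over the 17 alternatives run for Cma1 the adjusted p ranged from 0.13 to 0.817 and the log2 fold change from -1.67 to -0.93. Both experiments had tumors of both groups, and BMT8 had a single Dnmt3a(+/+) BM tumor, at 8.53 CPM beside 6.05 and 4.70 CPM. The same order within each experiment follows from the lack of overlap over all tumors and adds no further evidence.

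**Figure D2:**
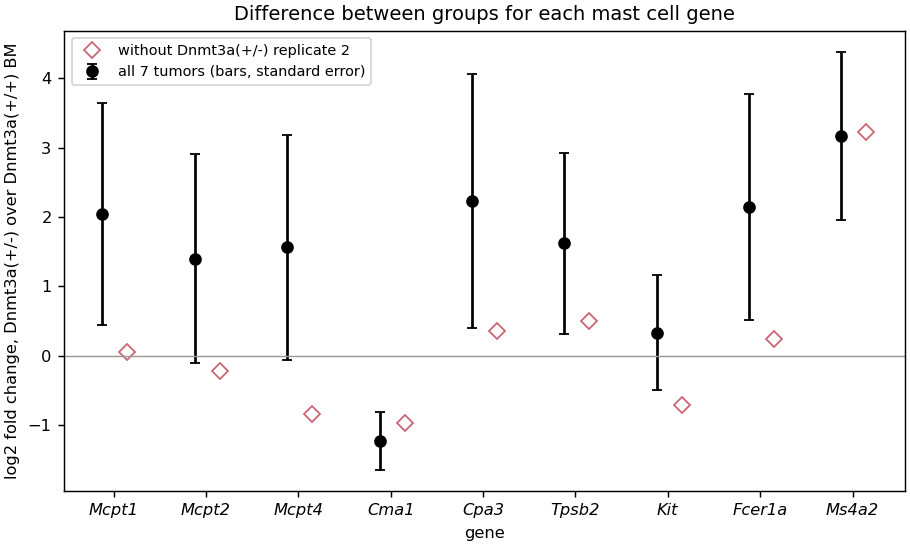
Log2 fold change of Dnmt3a(+/-) BM over Dnmt3a(+/+) BM for each mast cell gene. Black points with bars show the edgeR estimate and its standard error over 7 tumors, and open diamonds show the estimate without Dnmt3a(+/-) BM tumor 2 and without a count filter. With that tumor left out, Mcpt1, Cpa3, Fcer1a and Tpsb2 lie between 0.05 and 0.50, Mcpt2, Mcpt4 and Kit fall below 0, and Cma1 and Ms4a2 lie at -0.97 and 3.22.

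Cpa3, the carboxypeptidase, was rare in these tumors. Its counts were 33, 3 and 0 with Dnmt3a(+/+) BM and 2, 229, 49 and 3 with Dnmt3a(+/-) BM. Dnmt3a(+/-) BM tumors 2 and 3 lay above every Dnmt3a(+/+) BM tumor, at 4.67 and 0.995 CPM against at most 0.887 CPM, and tumors 1 and 4 lay within the range of the other group. A count of 0 in Dnmt3a(+/+) BM tumor 3, found also for Tpsb2 and Fcer1a, allows a level of up to 0.0918 CPM there, counting error only. For Cpa3 the log2 fold change was 2.23 with a standard error of 1.83 (edgeR adjusted p = 0.678). Without Dnmt3a(+/-) BM tumor 2 Cpa3 failed the count filter, and the fit without a filter gave 0.35.

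Kit, the stem cell factor receptor, varied less than Mcpt1, Mcpt2 and Mcpt4. Its levels were 8.70, 11.7 and 3.24 CPM with Dnmt3a(+/+) BM and 5.34, 25.2, 7.35 and 1.87 CPM with Dnmt3a(+/-) BM. The highest and the lowest tumor were both of the Dnmt3a(+/-) BM group, 13.5-fold apart. The log2 fold change was 0.33 with a standard error of 0.83 (edgeR adjusted p = 0.922), and without Dnmt3a(+/-) BM tumor 2 it was -0.67. Markers of the other Kit-bearing cells did not share one pattern. Ano1, the chloride channel of interstitial cells of Cajal, was lowest in Dnmt3a(+/-) BM tumor 2 at 86.4 CPM, against 182 to 294 CPM elsewhere. Etv1, a transcription factor of these cells, ranged from 0.336 to 4.59 CPM. Prkcq, a protein kinase C, stood at 0.734 to 1.18 CPM with Dnmt3a(+/+) BM and at 2.02, 5.11, 5.08 and 2.32 CPM with Dnmt3a(+/-) BM, without overlap (log2 fold change 1.96, standard error 0.49, edgeR unadjusted p = 0.00399, adjusted p = 0.361). DESeq2 called it, with an adjusted p of 0.00443, and the edgeR log2 fold change was 1.79 without Dnmt3a(+/-) BM tumor 2. The part of these cells in the Kit counts was not tested.

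The IgE receptor chains had the fewest counts. Fcer1a, the chain that holds IgE, had 14, 1 and 0 counts with Dnmt3a(+/+) BM and 2, 89, 15 and 3 with Dnmt3a(+/-) BM. Tumor 2 was the highest at 1.81 CPM, and the groups overlapped. Its log2 fold change was 2.14 with a standard error of 1.63 (edgeR adjusted p = 0.65), and the fit without that tumor and without a count filter gave 0.24.

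Ms4a2, the beta chain, was highest in Dnmt3a(+/-) BM tumor 3. Its counts were 7, 1 and 1 with Dnmt3a(+/+) BM and 4, 32, 83 and 12 with Dnmt3a(+/-) BM. Dnmt3a(+/-) BM tumors 2, 3 and 4, at 0.652, 1.69 and 0.324 CPM, lay above every Dnmt3a(+/+) BM tumor, while tumor 1, at 0.0998 CPM, lay within their range. Tumors 2, 3 and 4 are also those whose column names carry the added ending. Means were 0.0781 ± 0.0955 CPM (SD, n = 3) and 0.690 ± 0.701 CPM (SD, n = 4). The log2 fold change was 3.17 with a standard error of 1.21 and did not pass the test over all genes (edgeR unadjusted p = 0.0301, adjusted p = 0.42, exact permutation p = 0.2). Ms4a2 passed the count filter only through tumors 2, 3 and 4, so that this unadjusted p is no support for a difference. DESeq2 gave an adjusted p of 0.126, and over the 12 alternatives that could be fitted for Ms4a2 the adjusted p ranged from 0.126 to 0.836 and the log2 fold change from 2.61 to 4.84. None of these left out Dnmt3a(+/-) BM tumor 3, which held 83 of the 140 Ms4a2 counts. The range therefore does not show how far the fold change rests on that tumor.

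The balance of the receptor chains differed between tumors of the same group. Ms4a2 made up 26.4% of the Ms4a2 and Fcer1a counts in Dnmt3a(+/-) BM tumor 2 (exact Clopper-Pearson 95% interval 18.8% to 35.2%, 121 counts) and 84.7% in Dnmt3a(+/-) BM tumor 3 (76.0% to 91.2%, 98 counts), so that the intervals lay apart. Dnmt3a(+/+) BM tumor 1, the only tumor of its group with over 2 such counts, had 33.3% of 21 counts (14.6% to 57.0%). In Ms4a2, 13 of 3203 windows of 100 transcript bases were shared with Ms4a4b, and in Mcpt4 1 of 1009 was shared with Cma2, while the other 7 members shared none with another gene. Basophil markers were close to 0, with 0 to 5 counts per tumor for Mcpt8, a basophil protease, and 0 to 3 for Prss34, another. The third marker, Cd200r3, a surface receptor that mast cells carry too, had 34 to 157 counts per tumor.

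Compared per kilobase of exon, the order of the median CPM over the 7 tumors was Cma1 at 5.55, Mcpt1 at 2.04, Mcpt2 at 1.81, Kit at 0.825, Mcpt4 at 0.244, Tpsb2 at 0.204, Fcer1a at 0.0813, Ms4a2 at 0.0669 and Cpa3 at 0.0535. The ranges over tumors of all neighbours in this order overlapped. Cma1 was the most abundant member per kilobase in 4 tumors and Mcpt1 in the other 3. In Dnmt3a(+/-) BM tumor 2 Cma1 stood at 1.63 CPM per kilobase beside 68.6 for Mcpt1, and in Dnmt3a(+/+) BM tumor 3 at 7.83 beside 0.543.

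Mucosal proteases were set against connective tissue proteases within each tumor as the log2 ratio of Mcpt1 and Mcpt2 over Mcpt4, Cma1 and Tpsb2, each summed in CPM with 0.1 added. It was 0.89, -2.35 and -3.32 with Dnmt3a(+/+) BM and -0.58, 3.34, 1.38 and -1.52 with Dnmt3a(+/-) BM. The groups overlapped, and the means were -1.59 ± 2.21 (SD, n = 3) and 0.65 ± 2.16 (SD, n = 4), a difference of 2.25 that is about as large as the spread within each group. Without Dnmt3a(+/-) BM tumor 2 the difference was 1.35, without Dnmt3a(+/+) BM tumor 3 it was 1.38, and without Dnmt3a(+/+) BM tumor 1 it was 3.49. With the mean of the log2 CPM of each type in place of the summed CPM it was 0.89. Cma1 made up 18.2% of the connective tissue sum in Dnmt3a(+/-) BM tumor 2 and 81.6% to 99.6% in the other tumors. With Cma1 left out, a choice made after its pattern was seen, the ratio was 3.29, 2.95 and 2.73 with Dnmt3a(+/+) BM and 2.66, 3.63, 3.90 and 1.54 with Dnmt3a(+/-) BM. The difference between the means was then -0.06. As a share of the counts of all 5 proteases, the mucosal pair ran from 8.20% in Dnmt3a(+/+) BM tumor 3 (exact 95% interval 5.37% to 11.9%) to 91.1% in Dnmt3a(+/-) BM tumor 2 (90.3% to 91.8%).

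**Figure D3:**
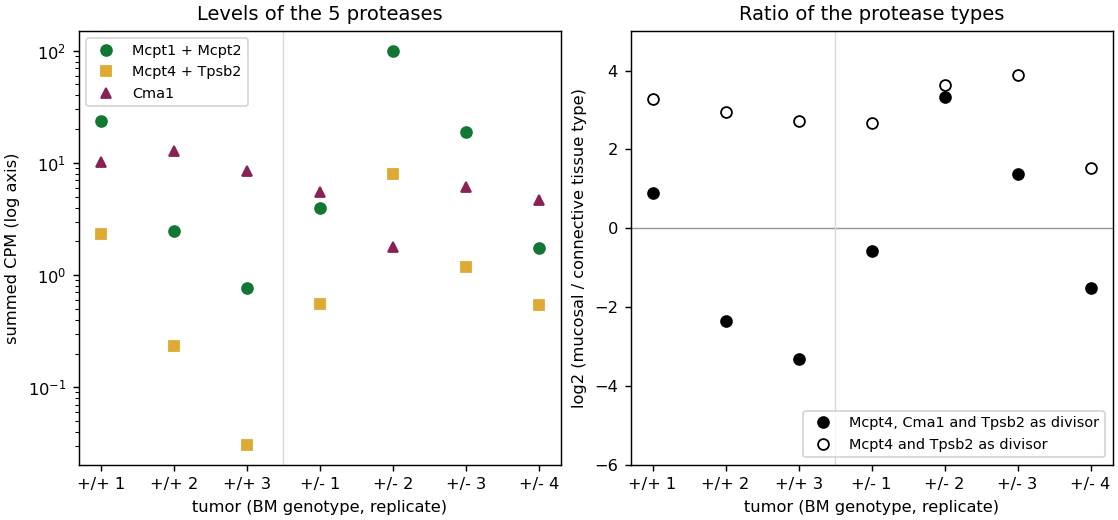
Left, summed CPM on a log axis of the mucosal proteases (green circles), of Mcpt4 and Tpsb2 (yellow squares) and of Cma1 (purple triangles) in each tumor. Right, the log2 ratio of mucosal to connective tissue proteases with Cma1 in the divisor (filled) and without it (open). The filled points run from -3.32 to 3.34 and the open ones from 1.54 to 3.90.

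The members were compared in 36 pairs as log2 CPM over the 7 tumors, with exact two-sided permutation p-values adjusted by Benjamini-Hochberg over the pairs. Of these, 15 passed at an adjusted p under 0.05 by Pearson's r and 14 by Spearman's rho. All 15 lay among the 7 members other than Cma1 and Kit, whose 21 pairs had r between 0.61 and 0.99 with a median of 0.93. Mcpt1 and Mcpt2 had r = 0.99 and rho = 1.0 (exact permutation adjusted p = 0.00357 and 0.00714), and r was 0.97 without the 2 tumors farthest from the median of Mcpt1. Mcpt4 and Fcer1a had r = 0.96 and rho = 1.0 with the same adjusted p-values, and r was 0.87 without 2 tumors. For Cpa3 and Fcer1a r was 0.99 and rho 0.96 (exact permutation adjusted p = 0.00714 and 0.0125), and r was 0.97 without 2 tumors. Without 2 tumors, 18 of the 21 pairs had an r over 0.7, although without Dnmt3a(+/-) BM tumor 2 the pairs that passed numbered 5.

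Kit had r between 0.20 and 0.79 with those 7 members, and 0 of its pairs passed. Cma1 had negative r with all other 8 members, from -0.70 to -0.29, and 0 of these pairs passed either. Without the 2 farthest tumors its r ran from -0.85 to 0.53, so that no common direction remained.

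**Figure D4:**
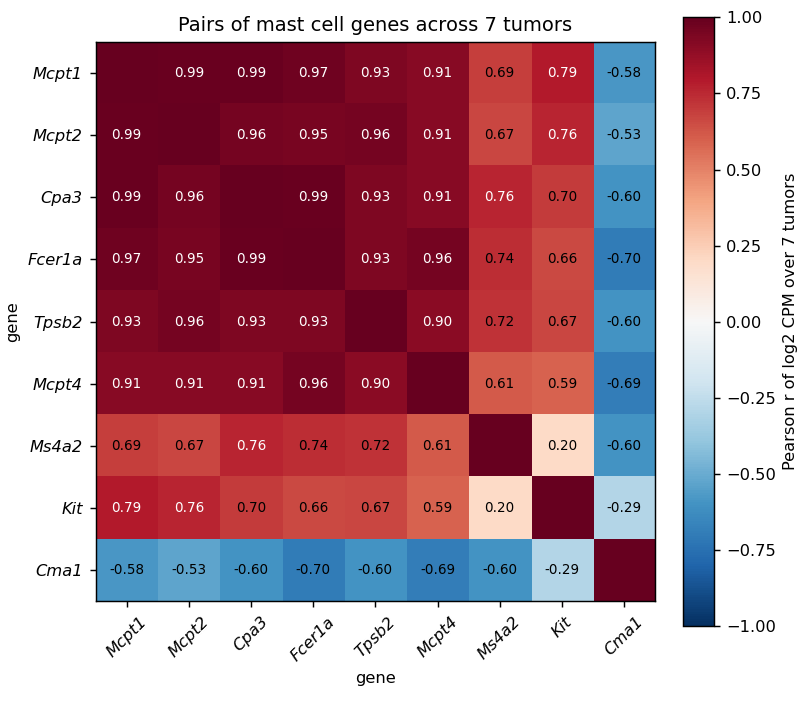
Pearson's r of log2 CPM over 7 tumors for each pair of mast cell genes (red, positive, blue, negative, diagonal without value). The block of Mcpt1, Mcpt2, Cpa3, Fcer1a, Tpsb2 and Mcpt4 is dark red with r of 0.90 and above, Ms4a2 and Kit are paler, and Cma1 is blue throughout.

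The chymase cluster on chromosome 14 held members of both patterns, Cma1 and the Mcpt genes. Between Cma1 and Mcpt1 lies Cma2, a second chymase gene, with 2 to 9 counts in 6 tumors and 43 in Dnmt3a(+/-) BM tumor 2. Mcpt9, between Mcpt1 and Mcpt2, had 0 to 13 counts, and Ctsg, the cathepsin G gene of neutrophils and mast cells, 0 to 2. Gzmb, the cytotoxic granule protease granzyme B at the far side of the cluster, had 159, 170 and 114 counts with Dnmt3a(+/+) BM and 241, 573, 146 and 16 with Dnmt3a(+/-) BM. These genes are some of those in the cluster and were named after values were seen. The granzyme genes between Ctsg and Gzmb were left out.

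Genes other than the members that were most like the mean log2 CPM of the 9 members were, out of 15716 compared over 7 tumors and in falling order of Pearson's r, Rtl5, C9orf72, Ighv1-26, Gucy1b1, Sgce, Igkv1-110, Tmem200b, Igkc, Rarres2 and Wscd1, with r from 0.971 to 0.953. They were chosen for this likeness, so that r is a description. Immunoglobulin genes were 3 of the 10. Igkc, the kappa constant region of antibodies, stood at 10.5, 0.343 and 0.0918 CPM with Dnmt3a(+/+) BM and at 2.72, 68.5, 3.17 and 0.649 CPM with Dnmt3a(+/-) BM. It was thus highest in Dnmt3a(+/-) BM tumor 2 and lowest in Dnmt3a(+/+) BM tumor 3, as Mcpt1 was. With the mean of the 8 members other than Cma1 as the reference, 9 of the 10 were shared.

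Genes that act around the mast cell were read from lists chosen by function. Of 14 genes of IgE receptor signaling, all 14 were tested, and edgeR called 0 (0% of all genes) and DESeq2 1 (1.25% of all genes). Their median log2 fold change was 0.50, or 0.13 without Dnmt3a(+/-) BM tumor 2. At an unadjusted p under 0.05, 2 were higher (5.83% of all genes) and 1 was lower (5.2%). Fyn, a kinase that starts the branch needed for degranulation, stood at 4.16, 3.08 and 3.70 CPM with Dnmt3a(+/+) BM and at 6.54, 13.9, 9.34 and 5.89 CPM with Dnmt3a(+/-) BM. Its groups did not overlap (log2 fold change 1.29, standard error 0.37, edgeR adjusted p = 0.373, DESeq2 adjusted p = 0.0306), and without Dnmt3a(+/-) BM tumor 2 the log2 fold change was 1.02. Plcg1, which makes the calcium signal, had a log2 fold change of 0.72 with a standard error of 0.22 (edgeR unadjusted p = 0.012), and of 0.56 without that tumor. For Lyn, the kinase that phosphorylates the receptor, levels were 74.4, 65.2 and 64.7 CPM with Dnmt3a(+/+) BM and 62.4, 41.1, 49.5 and 30.5 CPM with Dnmt3a(+/-) BM, again without overlap (log2 fold change -0.57, standard error 0.23, edgeR unadjusted p = 0.0416, and -0.50 without Dnmt3a(+/-) BM tumor 2). Syk, the kinase downstream of Lyn and the most abundant gene of this list, had a log2 fold change of -0.02 with a standard error of 0.23. These kinases are made by many cell types, and the cells they came from were not tested.

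Of 17 genes of mast cell growth and recruitment, 10 were tested and 0 were called by edgeR (0% of all genes) or DESeq2 (1.25%). Their median log2 fold change was 0.75, and 0.09 without Dnmt3a(+/-) BM tumor 2. At an unadjusted p under 0.05, 1 gene was higher (5.83% of all genes). That gene, Il1rl1, for which DESeq2 gave no adjusted p, encodes the receptor of IL-33. It stood at 8.97, 13.8 and 15.7 CPM with Dnmt3a(+/+) BM and at 19.8, 224, 22.8 and 31.7 CPM with Dnmt3a(+/-) BM. The groups did not overlap, and tumor 2 lay far above the rest (log2 fold change 2.54, standard error 0.95, edgeR adjusted p = 0.42). Without tumor 2 the log2 fold change of Il1rl1 was 0.98. Kitl, which encodes stem cell factor, the ligand of KIT, stood at 55.5, 85.0 and 38.4 CPM with Dnmt3a(+/+) BM and at 57.0, 182, 94.9 and 78.2 CPM with Dnmt3a(+/-) BM. Its groups overlapped (log2 fold change 0.79, standard error 0.43, edgeR unadjusted p = 0.109), and the log2 fold change was 0.40 without tumor 2. Il3 and Il9, the genes of cytokines that expand mast cells, had 0 counts in all 7 tumors, which allows 0.0468 to 0.0918 CPM depending on the tumor.

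Of 7 mast cell transcription factors, 6 were tested, and edgeR called 0 (0% of all genes) and DESeq2 1 (1.25% of all genes). At an unadjusted p under 0.05, 2 were higher (5.83% of all genes). Their median log2 fold change was 0.54, and it was 0.42 over the 5 that could be fitted without Dnmt3a(+/-) BM tumor 2. Gata2, a factor that mast cells require and that other blood and endothelial cells use, stood at 0.645, 0.687 and 0.122 CPM with Dnmt3a(+/+) BM and at 0.624, 6.03, 3.29 and 2.27 CPM with Dnmt3a(+/-) BM. Only Dnmt3a(+/-) BM tumor 1 lay within the range of the other group (log2 fold change 2.63, standard error 0.88, edgeR adjusted p = 0.401, DESeq2 adjusted p = 0.0354), and without tumor 2 the log2 fold change was 2.11. Tumor 1 is also the only Dnmt3a(+/-) BM tumor whose column name lacks the added ending. Tal1, a partner of Gata2 in blood and vessels, had a log2 fold change of 1.78 with a standard error of 0.68 (edgeR unadjusted p = 0.0312), and without tumor 2 it was not tested because it failed the count filter. Its counts were 2, 7 and 7 with Dnmt3a(+/+) BM and 13, 35, 24 and 7 with Dnmt3a(+/-) BM. Tal1 passed the filter only through the latter group, so that its p is no support for a difference. The most abundant of the list, Runx1 and Stat5b, had log2 fold changes of 0.25 (standard error 0.42) and -0.03 (standard error 0.21). The 6 endothelial marker genes ran from 11.8 to 21 CPM in sum with Dnmt3a(+/+) BM and from 25.3 to 110.0 CPM with Dnmt3a(+/-) BM, and 4 of the 6 were higher at an unadjusted p under 0.05 (5.83% of all genes). DESeq2 called 3 of them, Pecam1, Cdh5 and Kdr, beside 1.25% of all genes. The median log2 fold change of the 6 was 1.81, and 1.30 without Dnmt3a(+/-) BM tumor 2. Their part in the Gata2 and Tal1 levels was not tested.

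**Figure D5:**
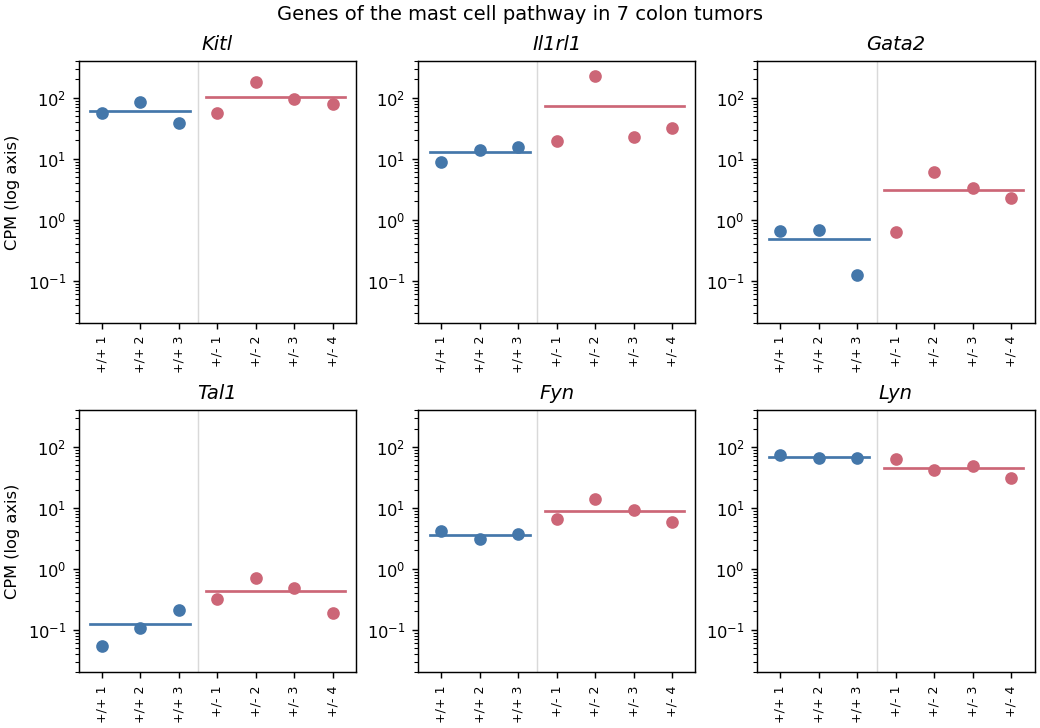
Levels in CPM on a log axis of 6 genes around the mast cell, 1 point per tumor (blue, Dnmt3a(+/+) BM, red, Dnmt3a(+/-) BM), with lines at the group means. Il1rl1, Fyn and Lyn show groups without overlap, Lyn in the opposite direction, and the Il1rl1 mean of the Dnmt3a(+/-) BM group is drawn up by tumor 2 at 224 CPM.

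Of 10 further granule genes, 6 were tested and 0 had an unadjusted p under 0.05 (11% of all genes), with a median log2 fold change of -0.25. Ctsc, the protease that activates granule proteases, and Srgn, the proteoglycan core of the granule, were the most abundant, with log2 fold changes of -0.23 (standard error 0.20) and -0.54 (standard error 0.57). Both are made by many leukocytes. Of 7 genes of lipid mediator synthesis, all were tested, and edgeR called 0 (0% of all genes) and DESeq2 0 (1.25%). Their median log2 fold change was 0.53, or -0.01 without Dnmt3a(+/-) BM tumor 2, and 5 of 7 lay above 0 (50.2% of all genes). At an unadjusted p under 0.05, 0 were higher (5.83% of all genes) and 1 was lower (5.2%). That gene, Pla2g4a, encodes the phospholipase that frees arachidonic acid. Its log2 fold change was -0.46 with a standard error of 0.20 (edgeR unadjusted p = 0.0484, adjusted p = 0.45), and -0.34 without Dnmt3a(+/-) BM tumor 2. Ptgs2, an inducible cyclooxygenase, had 111 CPM in Dnmt3a(+/-) BM tumor 2 and 2.64 to 9.54 CPM in the other tumors, and its log2 fold change of 2.15 turned to -0.19 without that tumor. Of 6 further surface genes, 3 were tested and 0 had an unadjusted p under 0.05 (11% of all genes), and their median log2 fold change was 0.05. Cd63, a granule membrane protein that most cells make, had a log2 fold change of -0.33 with a standard error of 0.21, and Cd200r3 one of 0.05 with a standard error of 0.59.

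Other marker lists gave the surroundings of these values. All 8 fibroblast genes had a log2 fold change above 0 (50.2% of all genes). Their median was 1.38, and 0.24 without Dnmt3a(+/-) BM tumor 2. The members' median over all 7 tumors was 1.62. Without that tumor and without a count filter, Ms4a2 was at 3.22 and the other members ran from -0.97 to 0.50. The sums over 7 leukocyte genes were 41.0 to 103 CPM with Dnmt3a(+/+) BM and 40.1 to 180 CPM with Dnmt3a(+/-) BM. Macrophage genes summed to 47.5 to 101 and 49.4 to 199 CPM, and T cell genes to 3.53 to 9.08 and 0.703 to 10.1 CPM, with median log2 fold changes of 0.79 and -0.19. Without Dnmt3a(+/-) BM tumor 2 these medians were 0.08 and -0.61. Eosinophil genes, 1 of 6 tested, summed to at most 1.08 CPM in any tumor. Crypt secretory genes were lower at an unadjusted p under 0.05 for 3 of 4 (5.2% of all genes), with a median log2 fold change of -1.0. Spink4, a goblet cell peptide, was among them, at 393 to 502 CPM with Dnmt3a(+/+) BM and 175 to 215 CPM with Dnmt3a(+/-) BM (log2 fold change -1.13, standard error 0.16, edgeR adjusted p = 0.361, DESeq2 adjusted p = 2.25e-05), and it was the gene of this list that DESeq2 called. Without Dnmt3a(+/-) BM tumor 2 its log2 fold change was -1.15. Muc2, of the same list, had a log2 fold change of -0.03. Of 9 colon epithelial genes, 8 had a log2 fold change below 0, where 50.2% of all genes had one above 0. Their median was -0.48, and -0.40 without Dnmt3a(+/-) BM tumor 2. The medians of both lists thus lay in the direction of Cma1. The part of these cells in the member levels was not tested.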

How the data were processed

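Poly(A) RNA of 7 whole colon tumors was sequenced from directional libraries. Per the labels and the study's methods, the authors trimmed reads with Trimmomatic, aligned them with STAR to mm10 and deposited estimated counts per gene from RSEM, whole numbers that are not normalized, with no normalization across tumors. The annotation release and the strand setting of the counting are not given in the sources used here. No column of values was left unmapped, and rows without a symbol held 0.104% of counts.

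The estimated counts entered the fit as deposited. Genes passing filterByExpr were fitted with edgeR 4.0.16 (R 4.3.3, TMM, quasi-likelihood, graft as the only term, all 7 tumors), with Benjamini-Hochberg adjustment over the 15810 genes tested. Genes were called where the adjusted p fell below 0.05 and the log2 fold change lay beyond 1 in either direction. The standard error is the unshrunk coefficient over the square root of its F. DESeq2 1.42.0 served as an alternative. Correlations used log2 CPM with a prior count of 2 and scipy 1.17.1, with all orders of the 7 tumors enumerated. The fitting steps were tested on simulated data. Those data had the same dispersion for every gene and no tumor that stood apart. The test therefore does not show how the fits handle tumors like these. Exact tests, where named, are permutation tests over tumors. Intervals (Clopper-Pearson, 95%) and the upper limit of a count of 0 (3 counts) cover counting error only. The labels call the tumors biological replicates. Deviations of tumors with the same replicate number correlated at 0.568, 0.071 and -0.038. Those of tumors with different numbers ran from -0.466 to 0.489. So few correlations cannot show whether the numbers pair the groups, and the main fit does not pair them.

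Named were all 9 members, genes of the 6 lists of mast cell function with an unadjusted p under 0.05, the 2 most abundant genes of each of these lists, basophil and interstitial cell of Cajal markers, and the 10 genes most like the members. Genes of the chymase cluster, Il3, Il9, Spink4, Pecam1, Cdh5 and Kdr among the markers of other cells, list values without Dnmt3a(+/-) BM tumor 2, and the references for likeness other than the mean of the 9 members were added after values were seen. The members and lists were chosen with earlier results of these data known. Positions come from GENCODE M21 and promoters from RefSeq, both GRCm38.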

Additional observations from a re-analysis of the deposited data

Results flagged for a closer look

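In the Dnmt3a(+/-) BM group, 27 values were examined by Dixon's ratio for a tumor far from the other 3. Such a tumor was found for 5 values, and it was tumor 2 each time. Chance exceeds the limit used in about 1 of 20 groups of normally distributed values. The ratio was taken on CPM and not on its logarithm, so that this rate need not hold for skewed levels. Mcpt1 stood at 69.6 CPM there against 1.05 to 12.4 CPM in the other tumors of the group. Mcpt4 stood at 5.13 CPM against 0.225 to 0.325 CPM. Fcer1a stood at 1.81 CPM against 0.0499 to 0.305 CPM. The 17 genes of mast cell growth and recruitment summed to 553 CPM against 179 to 196 CPM, with Il1rl1 at 224 CPM of it. The 7 genes of lipid mediator synthesis summed to 169 CPM against 55.8 to 62.9 CPM, with Ptgs2 at 111 CPM of it. The members and lists overlap in the tumor they share, so that the 5 values are not independent. The Dnmt3a(+/+) BM group of 3 was not examined in this way.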

How the results depend on the processing

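Over the 9 members, 141 fold changes were computed under other normalizations, filters, dispersion, covariates and subsets of tumors, of which 134 kept their direction, 0 passed the threshold and 7 changed sign. Without Dnmt3a(+/-) BM tumor 2 the log2 fold change was -0.23 for Mcpt2, -0.84 for Mcpt4 and -0.67 for Kit, and without a count filter as well, a setting added after the data were seen, -0.23, -0.85 and -0.71. Without Dnmt3a(+/+) BM tumor 3 that of Kit was -0.02. With 1 tumor left out at a time, members called numbered 0 to 0, the difference in the protease ratio ran from 1.35 to 3.49, and the correlated pairs numbered 5 (without Dnmt3a(+/-) BM tumor 2) to 18 (without Dnmt3a(+/+) BM tumor 2). The log2 fold changes ran from 0.06 to 4.33 for Mcpt1, -0.23 to 4.00 for Mcpt2, -0.84 to 5.12 for Mcpt4, -1.40 to -0.93 for Cma1, 1.68 to 5.56 for Cpa3, 0.52 to 3.35 for Tpsb2, -0.67 to 0.73 for Kit, 1.55 to 5.50 for Fcer1a and 2.61 to 4.84 for Ms4a2. The upper ends of Mcpt1, Mcpt2, Mcpt4, Cpa3, Tpsb2, Fcer1a and Ms4a2 came without Dnmt3a(+/+) BM tumor 1. Cpa3 and Fcer1a failed the filter without Dnmt3a(+/-) BM tumor 2 or 3, and Ms4a2 without 2, 3 or 4 and in BMT18 alone, and under a stricter filter these 3 and Mcpt4 were not tested. The protease ratio differed by -0.06 without Cma1 and by 0.89 with the mean of log2 CPM in place of summed CPM. With the replicate number as a block, 0 members were called, and the pairing of numbers changed no call. Over all genes, edgeR called 0 and DESeq2 302, and 1744 had an unadjusted p under 0.05 in edgeR (922 higher, 822 lower). Scaling by library size alone moved the median of all genes to 0.213 and this split to 1687 higher and 288 lower. Counts under about 10 per tumor, as for Fcer1a and Ms4a2 in most tumors, limit what these libraries can resolve.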

Other observations

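The genes most like Cma1 alone over the 7 tumors, a reference chosen after its values were seen, were Cds1, Tmem45b, Tnfsf13os, Elmo3, Pmp22, Chmp3, Fbxo4, Gm10516, Mkrn1 and Hottip, with Pearson's r from 0.994 to 0.982. Cds1, which makes a precursor of phosphatidylinositol, stood at 174, 196 and 136 CPM with Dnmt3a(+/+) BM and at 114, 53.6, 112 and 101 CPM with Dnmt3a(+/-) BM. Both genes were highest in Dnmt3a(+/+) BM tumor 2 and lowest in Dnmt3a(+/-) BM tumor 2, which follows from choosing Cds1 by likeness. None of the 10 most like the mean of all members was among the genes most like Cma1. Atp12a, a proton pump of the colon epithelium that lies beyond the granzymes on chromosome 14, had 13575, 21675 and 15929 counts with Dnmt3a(+/+) BM and 10582, 759, 12299 and 3947 counts with Dnmt3a(+/-) BM.

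The genes most like Kit alone were Mtmr4, Adap2, Pik3c2a, Specc1l, Tiam2, C4bp, Rap1gap, Zfp595, Hpgds and Car8, with r from 0.995 to 0.963. Hpgds, the prostaglandin D synthase of mast cells and other leukocytes, stood at 5.83, 6.84 and 2.32 CPM with Dnmt3a(+/+) BM and at 3.99, 7.82, 4.73 and 2.08 CPM with Dnmt3a(+/-) BM. Its groups overlapped as those of Kit did, which follows from the choice by likeness to Kit.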
